A study of Mus musculus with 12 samples.

Results

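The wild type mouse yolk sac was compared between embryonic day 8.5 (E8.5) and E10.5, using the 6 wild type arrays of a series of 12 and the 18193 genes that the array's annotation names. The wild type groups, 3 arrays per stage, carried no genetic modification, per the labels. The other 6 arrays, 3 per stage, came from Z/Norrin yolk sacs with ectopic Norrin, which is secreted and activates the receptor Frizzled4, and were used here for the shared estimate of the spread and for 1 comparison of the stage changes. All 4 groups were of C57Bl6/129 mixed background and mixed sex, and each array measured total RNA from a pool of yolk sacs of 3 to 5 embryos. Replicates were therefore separate pools, and the labels do not say whether pools shared litters. The p-values set a difference of groups against the spread between pools, estimated over all 4 groups. The tissue was the whole yolk sac, so fewer cells of a type and less RNA per cell cannot be told apart in any result.

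The yolk sac is an extraembryonic membrane with an outer visceral endoderm and an inner mesoderm. The endoderm takes up and digests maternal material and makes lipoproteins and plasma proteins before the embryo's liver does. The mesoderm forms the first red cells, macrophages and megakaryocytes, the vascular plexus that is remodelled into larger vessels once the heart beats, and the connective tissue and mesothelium around them.

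Markers of visceral endoderm and red cells, which define the labelled tissue, were high at both stages. The median log2 value of 7 visceral endoderm markers lay between 13.98 and 14.22 on the E8.5 arrays and between 13.89 and 13.99 on the E10.5 arrays, near the highest value of 14.94 on these arrays. Of the 5 measured erythroid markers the medians were 14.17 to 14.57 and 14.02 to 14.61. The medians of 4 trophoblast, 7 embryo neural and 5 embryo heart and muscle markers stayed between 5.42 and 6.51 at both stages, with single exceptions such as the trophoblast gene Plac1 at a mean of 9.09. Of 8 trophoblast markers only these 4 were measured, and a list of 13 trophoblast genes had array medians of 7.14 to 8.28. Medians of 5 decidua markers were 5.73 to 6.85, with Prl8a2 at a mean of 8.52. Those of 4 parietal endoderm markers were higher, at 8.07 to 9.13. Embryo neural markers lay at 5.42 to 5.71 at E8.5 and 6.16 to 6.51 at E10.5, and their part in the results was not tested.

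Arrays of 1 stage had been normalized together and apart from the other stage: 2 arrays of the same stage held between 26 and 93 identical values, and 2 arrays of different stages (36 pairs) held 0. Stage and normalization run cannot be told apart. The median log2 value of an array was 6.62 to 6.73 in wild type E8.5 and 6.97 to 6.98 in wild type E10.5. Among genes, the median change from E8.5 to E10.5 was 0.14 (log2) as deposited, -0.05 after joint quantile normalization of the 12 arrays and -0.14 after median centring, so small changes take their sign from the scaling. For this reason a gene is called here, and said to have risen or fallen, only where limma gave an adjusted p under 0.05 with the same direction on the deposited values and after joint quantile normalization. Log2 changes, standard errors (SE) and adjusted p-values are E10.5 minus E8.5 in wild type from limma on the deposited values unless said otherwise.

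**Figure D1:**
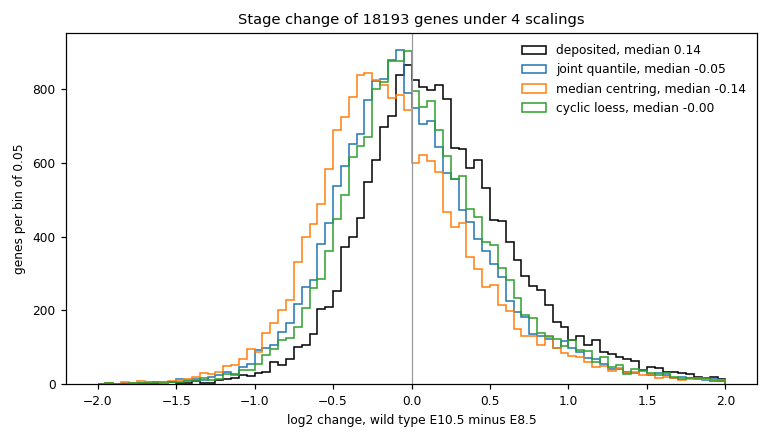
Distribution of the log2 change (E10.5 minus E8.5, wild type) of 18193 genes under the 4 scalings compared, as genes per bin of 0.05; changes beyond the axis are not drawn. The deposited values lie to the right of the others, with a median of 0.14 against -0.05 after joint quantile normalization and -0.14 after median centring.

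An array stood apart from the others of its group, and another weighed on many calls. Wild type E8.5 replicate 3 correlated with the other wild type E8.5 arrays at r = 0.975 and 0.977, against 0.992 between those, and its hybridisation spike-ins had a mean of 12.38 against 10.95 and 11.33. Its highest correlation was with Norrin E8.5 replicate 3 (r = 0.987), whose spike-ins had a mean of 12.36. Wild type E10.5 replicate 2 had the most extreme value in many of the genes below, and calls fell from 4145 to 2734 without it. They fell to 2991 without E8.5 replicate 2 and to 3196 without E10.5 replicate 3. E10.5 replicate 2 correlated with the other wild type E10.5 arrays at r = 0.987 and 0.991, against 0.992 between those. List counts that moved by over 1.5 times when 1 array was left out are given with their value, except moves of 1 gene.

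Of the 18193 genes, 4145 (22.8%) were called: 2867 (15.8%) rose from E8.5 to E10.5 and 1278 (7.02%) fell. Every list count below is to be read against these shares of all genes. The number that fell was 639 without E10.5 replicate 2, 771 without E8.5 replicate 2 and 791 without E10.5 replicate 3. Among the 4145, 1265 rose and 124 fell by at least 2-fold on the deposited scale. On the deposited values alone, 5915 genes (32.5%) passed: 4619 (25.4%) passed as higher and 1296 (7.12%) as lower; the lower ones numbered 649, 778 and 803 without those same arrays. After joint quantile normalization 2909 (16%) passed as higher and 3374 (18.5%) as lower. The higher calls made up 78.1% of calls as deposited, 46.3% after joint quantile normalization, 34.7% after median centring and 53.8% after cyclic loess, and 0 genes were called in opposite directions by the deposited and the joint quantile values. In a stricter test against a change of 2-fold, 151 genes (0.83%) passed, all higher at E10.5; after joint quantile normalization 66 passed as higher and 2 as lower. Of the deposited values, 79 passed it without E8.5 replicate 1, 77 without E8.5 replicate 2 and 85 without E10.5 replicate 2.

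Slc16a7, a monocarboxylate carrier (chromosome 10, 125219270 to 125389586 on GRCm38.p6), had log2 values of 3.94, 4.0 and 4.03 on the E8.5 arrays and of 8.87, 9.44 and 8.85 on the E10.5 arrays. The groups did not overlap (log2 change 5.06, SE 0.16, adjusted p = 1.18e-08), but the E8.5 values lie near the floor of the array, so the size of the change is not exact. Kng1, the precursor of the vasoactive kinins, rose from 6.45, 5.46 and 7.47 to 11.13, 12.27 and 10.86 (4.96, SE 0.58, adjusted p = 8.21e-05). Atp8b1, a phospholipid flippase, was near the floor too at E8.5 (3.83 to 3.92) and at 6.45, 9.53 and 7.20 at E10.5. E10.5 replicate 2 was the highest of the 3 by over 2 log2 units. A rise was also seen for Pygl, liver glycogen phosphorylase (3.96), the transcription factor Prdm14 (3.46) and Plekhd1 (3.86). Mgst1, a microsomal glutathione transferase, rose by 4.11 on its brightest probe set, while its other probe set changed by -0.21.

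Under the rule for calls fewer genes fell than rose, a count that depends on the scaling. After joint quantile normalization alone, 3374 passed as lower and 2909 as higher. Genes past the 2-fold test were mostly risers under both scalings (151 higher and 0 lower as deposited, 66 and 2 after joint quantile normalization). Zfp934, a zinc finger gene, had values of 12, 11.54 and 11.74 at E8.5 and 9.17, 8.52 and 8.28 at E10.5. It fell by 3.10 on the log2 scale (SE 0.50, adjusted p = 0.000687), and its other probe set changed by -1.07. Emb, the cell adhesion protein embigin, was among the highest values of the array at E8.5 (14.17, 14.29 and 13.70) and at 12.42, 9.59 and 11.82 at E10.5. Again E10.5 replicate 2 lay furthest from E8.5; the change was -2.77 (SE 0.56, adjusted p = 0.00271). Csf2rb and Csf2rb2, beta subunits of receptors of the GM-CSF and IL-3 family, fell by 2.18 and 2.31, but they are near-identical copies and may share signal. Others among the 15 largest falls were Hoxb6 (-2.11), Id3 (-1.90), Prtg (-1.55), Trmt61a (-1.53) and Hopx (-1.53). For B4galnt2 the main probe set fell by 1.67, whereas its 3 other probe sets ranged from -0.92 to 0.98.

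**Figure D2:**
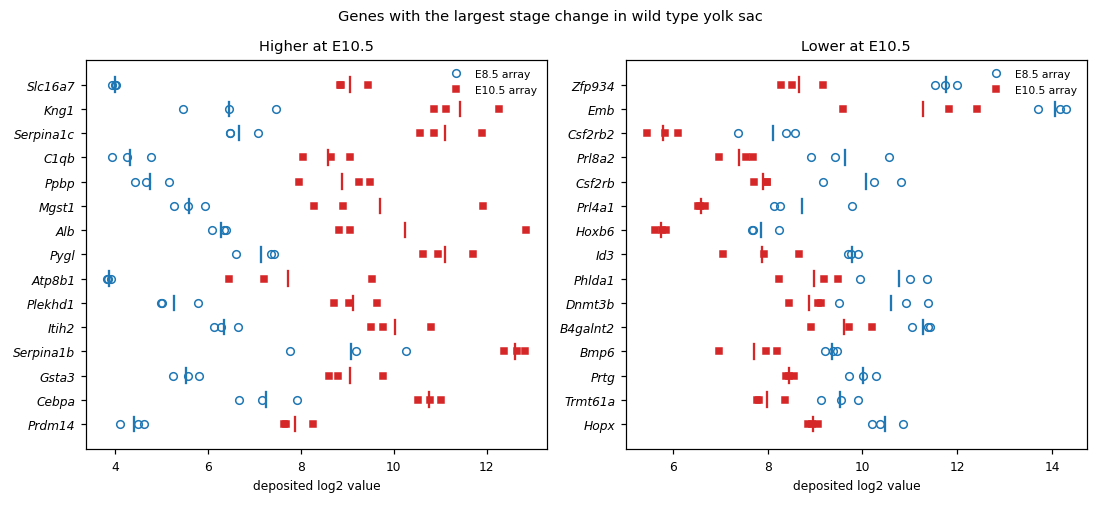
Deposited log2 values of the 15 genes with the largest rise (left) and the 15 with the largest fall (right) on each of the 3 E8.5 arrays (open circles) and 3 E10.5 arrays (squares), with the group means as vertical lines. The stage groups do not overlap for any of these genes, which the rule for naming them required and which held on the deposited values for 43.9% of all genes (32.7% higher and 11.2% lower at E10.5); E10.5 replicate 2 is the outlying square for Alb (12.85) and Emb (9.59).

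Secreted plasma proteins of the visceral endoderm had the highest median change of the 49 gene lists examined. Of 24 measured members 17 rose and 0 fell (15.8% and 7.02% of all genes), with a median change of 1.66 as deposited and 1.61 after joint quantile normalization, against 0.14 and -0.05 for all genes. Itih2, a hyaluronan-binding inter-alpha-trypsin inhibitor chain, went from 6.12, 6.27 and 6.64 to 9.78, 10.79 and 9.51 (3.68, SE 0.29, adjusted p = 7.8e-06). Alb, serum albumin, was at 6.08, 6.35 and 6.4 at E8.5, against 8.82, 12.85 and 9.06 at E10.5. Its mean thus rose by 3.96 (SE 0.78, adjusted p = 0.00234), with an E10.5 SD of 2.26 that came from replicate 2. Serpina1c and Serpina1b, alpha-1 antitrypsin genes of a family of close copies whose signals may be shared, rose by 4.44 and 3.54. Afp, alpha-fetoprotein, an abundant early product, was at 14.26 to 14.64 at E8.5 and 14.64 to 14.76 at E10.5 (0.24, adjusted p = 0.472), and Ttr, transthyretin, at 14.42 to 14.51 and 14.28 to 14.50 (-0.08, adjusted p = 0.631). Those values lie near the highest value on these arrays. Other probe sets of Afp changed by -0.25 to 0.83 (limma over all named probe sets, adjusted p = 0.414 and 0.00336). After joint quantile normalization they changed by -0.18 to 0.56. On their main probe sets the changes of the 7 endoderm markers named above ranged from -0.29 (Cubn) to 0.24 (Afp).

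In promoters of the plasma protein genes, the letters TTGCNNAA, a loose form of the C/EBP site, were searched on both strands in the 250 bases before each start (RefSeq, GRCm38.p6). These letters fix the half-site TTGC and only part of the other half-site. They were found in 10 of the 19 list genes with a promoter entry (52.6%) and in 9.65% of the 14452 genes tested that have one. Parts of 3 such promoters are shown because their genes are among the largest rises. Capitals mark the match. The stretches are chr5:90460750-90460869 (plus strand) for Alb, chr12:103738231-103738350 (minus strand) for Serpina1b and chr2:10130684-10130803 (minus strand) for Itih2.
Alb: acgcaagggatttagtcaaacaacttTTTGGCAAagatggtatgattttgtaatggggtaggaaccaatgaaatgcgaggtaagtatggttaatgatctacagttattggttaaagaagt
Serpina1b: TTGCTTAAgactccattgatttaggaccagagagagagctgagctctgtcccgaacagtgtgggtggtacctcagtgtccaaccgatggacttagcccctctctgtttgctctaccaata
Itih2: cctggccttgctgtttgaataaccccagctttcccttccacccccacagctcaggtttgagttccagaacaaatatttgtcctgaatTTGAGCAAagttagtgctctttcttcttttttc
Genes with the match were not only those that rose: Afp and Rbp4, neither of which was called on its main probe set, hold it too. A match is a run of letters, and binding was not measured. Whether list genes with the match changed more than those without it was not tested.

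Endoderm transcription factors changed in part. Of 21 measured, 8 rose and 1 fell. Cebpa, which encodes C/EBP alpha, a regulator of liver and fat metabolism (chromosome 7, 35119293 to 35121928), was at 7.17, 6.67 and 7.93 at E8.5, against 10.78, 11.01 and 10.51 at E10.5. The difference was 11.4-fold (log2 change 3.51, SE 0.33, adjusted p = 1.8e-05). The bile acid receptor gene Nr1h4 (2.40), the forkhead factor Foxa3 (1.62) and the nuclear receptor Nr5a2 (1.32) rose as well. Hnf4a, the central nuclear receptor of visceral endoderm, was at 11.91 to 12.06 and 11.92 to 12.33 (0.08, adjusted p = 0.696). Gata4 fell by 0.84, a call lost without E8.5 replicate 3, E10.5 replicate 2 or E10.5 replicate 3 (adjusted p up to 0.0715).

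Calls among lipoprotein genes (22.2% rose and 11.1% fell) and the uptake machinery (23.8% and 9.52%) went both ways, as among all genes (15.8% and 7.02%). Of 18 apolipoprotein and lipoprotein assembly genes, 4 rose (Apoc1 by 1.75, Lcat by 1.67, Abca1 by 1.64 and Apoa2 by 1.58) and 2 fell. Those that fell were Apoe (-0.44; lost without E8.5 replicate 2 or E10.5 replicate 2 or 3, adjusted p up to 0.0763) and Mttp (-0.58; lost without E8.5 replicate 1 or 3 or E10.5 replicate 2 or 3, adjusted p up to 0.119). Without E10.5 replicate 2 or 3, 0 of the list fell. Apob, the structural protein of the lipoprotein particle, had a change of 0.01 (adjusted p = 0.983), and Apoa1 of 0.23 (adjusted p = 0.213). Of 21 endocytosis and lysosome genes, 5 rose and 2 fell. The neonatal Fc receptor Fcgrt, which carries maternal IgG, rose from 8.93, 9.10 and 10.45 to 11.49, 12 and 11.31 (2.11, SE 0.39, adjusted p = 0.00166), and the lysosomal protease cathepsin D (Ctsd) by 0.99. The proteases Lgmn (-0.99) and Ctsh (-0.73) fell. The uptake receptor cubilin (Cubn) and its partner amnionless (Amn) had changes of -0.29 (adjusted p = 0.117) and -0.25 (adjusted p = 0.241). In the brush border and junction list 2 of 19 genes rose (10.5%, against 15.8% of all genes), Krt20 (2.66) and Epcam (1.03), and 0 fell. The other probe set of Epcam changed by 0.02.

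Cholesterol synthesis genes rose nearly as a whole: 15 of 17 measured rose and 0 fell, with a median change of 1.48 as deposited and 1.39 after joint quantile normalization. Insig1, which retains the sterol sensor in the endoplasmic reticulum and is itself a sterol-regulated gene, was at 7.34, 7.14 and 6.63 at E8.5, against 8.99, 9.91 and 9.38 at E10.5. The groups did not overlap (log2 change 2.39, SE 0.33, adjusted p = 0.000224). Cyp51, the lanosterol demethylase, went from 7.79, 7.53 and 7.23 to 9.54, 9.86 and 9.29 (2.05, SE 0.20, adjusted p = 2.44e-05). Msmo1, the sterol methyl oxidase, rose by 1.93 (SE 0.20, adjusted p = 3.4e-05), from 9.22, 8.67 and 9.0 to 10.95, 11.03 and 10.70. Fdps, farnesyl diphosphate synthase, rose by 2.21, while its other probe set changed by -0.21. The 2 members without a call were Pmvk (0.48, adjusted p = 0.0395 as deposited and 0.17 after joint quantile normalization) and Hsd17b7 (0.19, adjusted p = 0.34). Those 2 and Hmgcs1, shown next, were picked after their values were seen.

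The promoters of this pathway share a short motif. The CCAAT letters, the box bound by NF-Y, were found on either strand in the 250 bases before the start of 14 of the 14 genes with a promoter entry, against 39.4% of the 14452 genes tested. A core of the sterol response element, TCACNCCAC, was found in 1 of the 14 (1.27% of all), that of HMG-CoA synthase (Hmgcs1), and the E-box CACGTG in 4 of 14 (8.73%). CCAAT was also in 8 of 19 plasma protein, 8 of 17 complement, 3 of 15 ribosome and 9 of 22 macrophage promoters. The sterol core was in 1 of 22 macrophage promoters as well. Stretches of 3 promoters are shown to let the arrangement be read, with matches to CCAAT and, in Hmgcs1, to the sterol element in capitals. They are chr13:119690114-119690233 (plus strand), chr5:4104698-4104817 (minus strand) and chr8:64733619-64733738 (minus strand).
Hmgcs1: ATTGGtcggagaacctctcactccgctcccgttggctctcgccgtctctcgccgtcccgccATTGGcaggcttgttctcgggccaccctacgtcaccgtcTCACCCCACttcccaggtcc
Cyp51: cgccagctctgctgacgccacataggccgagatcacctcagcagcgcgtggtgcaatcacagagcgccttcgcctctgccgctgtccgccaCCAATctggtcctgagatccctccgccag
Msmo1: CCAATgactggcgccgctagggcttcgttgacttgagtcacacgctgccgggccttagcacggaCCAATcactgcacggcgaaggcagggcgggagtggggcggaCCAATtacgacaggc
Hmgcs1 itself, whose 4 other probe sets changed by 0.91 to 1.59, was at 10.81, 10.79 and 10.38 at E8.5, against 12.22, 12.58 and 12 at E10.5, a rise of 1.61. In all 12 motifs were searched in 5 lists. A 10-letter interferon element was in 6 of 17 complement, MHC and interferon genes (3.13% of all) and the PU.1 site GAGGAAGT in 4 of 22 macrophage genes (2.8%). The others, by share of all genes, were AGATAA for GATA factors (8.79%), CCACACCC for Klf factors (4.22%), CAGGAAGT for ETS factors (3.27%), CAAAGTCCA for HNF4 (0.512%), an 11-letter site for HNF1 (0.138%) and a 10-letter CArG box for SRF (0.0208%). In the lists, GATA matches were in 2 of 19 plasma protein and 1 of 17 complement promoters, Klf matches in 3 of 17 complement promoters, and ETS matches in 3 of 22 macrophage promoters, with at most 1 match of these in any other list. HNF4 and HNF1 matches were in 0 of the 19 plasma protein promoters, and SRF matches in 0 of any list. Motifs may share bases with each other.

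Enzymes of detoxification and of liver-type metabolism rose in number. Of 29 detoxification genes 15 rose and 1 fell (median 0.81 as deposited, 0.62 after joint quantile normalization). Adh1, alcohol dehydrogenase, was at 7.33, 7.17 and 8.08 and then at 10.50, 11.08 and 10.43 (3.14, SE 0.28, adjusted p = 1.38e-05). The glutathione transferase Gsta3 rose by 3.53 and the drug efflux pump Abcb1a by 2.56. In gluconeogenesis and glycogen metabolism 6 of 13 rose, among them liver glycogen synthase Gys2 (2.10) and the phosphatase subunit Ppp1r3c (1.79), and 1 fell, the glucose carrier Slc2a2 (-1.44). Of 21 genes of amino acid breakdown and the urea cycle 6 rose and 2 fell. The tyrosine pathway enzymes Hgd (3.36) and Hpd (1.78) were among the risers, as were Bhmt (2.37), which remethylates homocysteine, and Haao (2.09) of tryptophan breakdown. On its other probe set Hgd changed by 0.36. Fatty acid oxidation had 6 risers of 14, led by carnitine palmitoyltransferase Cpt1a, which went from 7.86, 7.18 and 8.15 to 9.27, 9.44 and 9.93 (1.82, SE 0.24, adjusted p = 0.000168). Its stage groups were separate by over 1 log2 unit.

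Energy metabolism outside these pathways had small median changes as deposited: 0.17 for oxidative phosphorylation and 0.09 for glycolysis and hypoxia (0.14 for all genes). The shares of these 2 lists that rose were 21.1% and 23.1% (15.8% of all genes). Those that fell were 0% and 11.5% (7.02% of all genes). In oxidative phosphorylation 4 of 19 genes rose and 0 fell, with the coactivator Ppargc1a ahead, from 5.67, 5.57 and 5.95 to 7.73, 7.74 and 7.83 (2.04, SE 0.14, adjusted p = 2.72e-06). Of 26 glycolysis and hypoxia genes 6 rose and 3 fell. Aldoa, aldolase A, rose by 0.96 and the neuronal-type glucose carrier Slc2a3 fell by 1.23 on the main probe set, from 14.66, 14.66 and 14.47, near the top of the scale, to 13.73, 12.67 and 13.70. Its 3 other probe sets changed by -1.50 to -2.88. Counts of this list ranged from 3 to 6 risers and from 1 to 4 falls when single arrays were left out: 3 risers without E8.5 replicate 1 or 2 or E10.5 replicate 2, and 1 fall without any array except E8.5 replicate 3. Nutrient carriers had 5 risers and 1 fall of 26, with the organic cation carrier Slc22a2 (1.70) in front; 3 fell without E10.5 replicate 3.

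**Figure D3:**
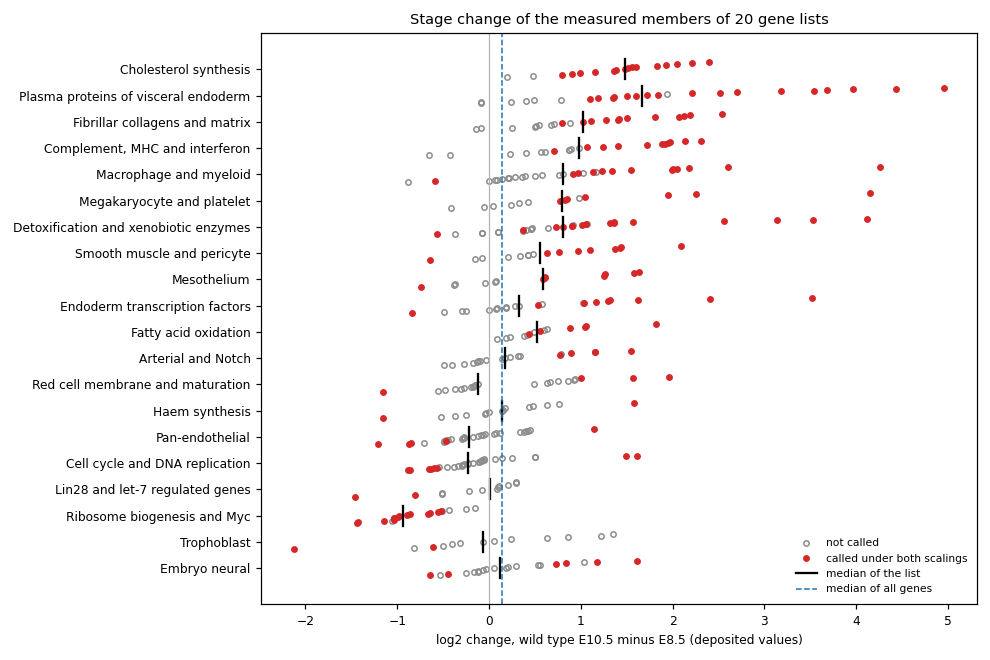
Log2 change (E10.5 minus E8.5, deposited values) of each measured member of 20 gene lists; filled points were called under both scalings, open points were not, black bars are list medians and the dashed line is the median of all genes, 0.14. Cholesterol synthesis (median 1.48) and plasma proteins (1.66) lie to the right and ribosome biogenesis (-0.94) to the left.

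The embryonic globins Hbb-y (14.17 to 14.57 at E8.5, 14.02 to 14.68 at E10.5), Hba-x (14.51 to 14.62, then 14.36 to 14.75) and Hbb-bh1 (14.55 to 14.69, then 14.38 to 14.66) were at the top of the scale and had changes of 0.00, 0.03 and -0.10 (adjusted p = 0.988, 0.894 and 0.514). Of 6 measured globins 0 rose and 1 fell, Hba-a1 (-0.56), on a probe set near the floor at 5.53 to 6.37. Hba-a2 and Hbb-b2 passed as higher on the deposited values alone (adjusted p = 0.0256 and 0.0388), not after joint quantile normalization. Another probe set of Hbb-b2 changed by 2.22, or by 1.98 after joint quantile normalization. Probe sets that match several adult globin genes at once were left out. In haem synthesis 1 of 15 genes rose, Hmox1, which breaks haem down (1.58; the call was lost without E8.5 replicate 2 or E10.5 replicate 2, adjusted p up to 0.0653), and 1 fell, Cpox (-1.16). Without E10.5 replicate 1, 3 of the list rose. Alas2, the erythroid first enzyme of the pathway, was at 10.75, 9.84 and 10.65 and then at 10.37, 11.45 and 11.69 (0.76, adjusted p = 0.0846), so E10.5 replicate 1 overlapped E8.5 while replicates 2 and 3 did not.

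Regulators and membrane proteins of red cells gave few calls. Klf1, the erythroid factor, was at 10.11 to 10.69 at E8.5, against 9.5, 9.24 and 10.46 at E10.5 (-0.66, adjusted p = 0.141). Of 16 erythroid regulators Foxo3 (1.45) and Sox6 (1.16), the latter a repressor of embryonic globin, rose, and Zfpm1 fell by 1.10. Other probe sets of Foxo3 changed by 1.30 and 0.04. The call of Zfpm1 was lost without E8.5 replicate 1 or 2 or E10.5 replicate 1 or 2 (adjusted p up to 0.0881); the list had 3 falls without E8.5 replicate 3 and 4 without E10.5 replicate 3. Of 21 membrane and maturation genes 3 rose, the water channel Aqp1 (1.96) and the blood group genes Rhd (1.56) and Icam4 (1.00), and Cpox fell. Without E10.5 replicate 1, 8 rose; without E8.5 replicate 3, 4 fell, and without E10.5 replicate 3, 3 fell. In iron handling 4 of 13 rose and 0 fell (2 rose without E8.5 replicate 1 or E10.5 replicate 2), with the ferroxidase Heph highest, from 7.31, 6.5 and 5.59 to 8.96, 10.51 and 8.73 (2.94, SE 0.46, adjusted p = 0.000543).

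Macrophage and megakaryocyte genes rose. Of 29 macrophage and myeloid genes 12 rose and 1 fell (median 0.80 as deposited, 0.55 after joint quantile normalization). C1qb, a chain of complement C1q made by macrophages, was near the floor at E8.5 (3.94, 4.25 and 4.78) and at 8.05, 9.05 and 8.64 at E10.5 (4.26, SE 0.34, adjusted p = 7.06e-06). The receptor for macrophage colony stimulating factor, Csf1r, went from 8.03, 8.32 and 8.44 to 10.30, 11.49 and 10.80, a 6.06-fold difference (2.60, SE 0.32, adjusted p = 0.000105). Cathepsin S (Ctss, 2.17) and the fractalkine receptor Cx3cr1 (2.04) rose too, while the granulocyte precursor gene Ms4a3 fell by 0.59. Ppbp, a platelet chemokine, was at 4.43, 4.66 and 5.16 and then at 7.96, 9.49 and 9.25 (4.15, SE 0.43, adjusted p = 3.6e-05). Of 14 megakaryocyte and platelet genes 7 rose and 0 fell, including Thbs1 (1.95) and Gp1bb (1.05); 4 rose without E8.5 replicate 1 or E10.5 replicate 3. Pf4, platelet factor 4, rose by 2.26, and this call was lost without E8.5 replicate 1 or 2 or E10.5 replicate 2 or 3 (adjusted p up to 0.0798).

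Progenitor genes were called both ways (13.6% rose and 13.6% fell, against 15.8% and 7.02% of all genes). The calls of the immune list below went in 1 direction. Of 22 hematopoietic progenitor genes 3 rose, Coro1a (1.63), Meis1 (1.01) and Rac2 (0.93), and 3 fell, Csf2rb, Cbfa2t3 (-0.54) and Runx1. Other probe sets changed by 0.29 and 2.18 for Coro1a, by 0.38 and 0.44 for Meis1 and by 0.10 for Rac2. Those of Csf2rb and Cbfa2t3 changed by -1.67 and by -0.72 to 0.35. Runx1, required for definitive blood, was at 8.32 to 8.96 and then 7.98 to 8.12 (-0.61, adjusted p = 0.0193; lost without E8.5 replicate 2 or E10.5 replicate 2, adjusted p up to 0.0859), and its 5 other probe sets ranged from -0.79 to 2.17. In the complement, MHC and interferon list 11 of 21 rose and 0 fell (median 0.98 as deposited, 0.78 after joint quantile normalization). B2m, the light chain of MHC class I, rose from 10.26, 10.53 and 11.64 to 12.56, 13.11 and 12.68 (1.97, SE 0.35, adjusted p = 0.00112). Bst2 (2.13), Ifitm3 (2.31) and the complement regulator Cfi (1.95) rose beside it.

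Of 28 pan-endothelial genes 1 rose and 4 fell, with a median of -0.22 as deposited and -0.39 after joint quantile normalization. Kdr, the main VEGF receptor, was at 10.95, 10.14 and 10.46 at E8.5, against 9.77, 9.14 and 9.01 at E10.5 (-1.21, SE 0.24, adjusted p = 0.00246). The falls of Sox18 (-0.87), VE-cadherin (Cdh5, -0.86) and Mmrn2 (-0.47) were each lost without E10.5 replicate 2, Sox18 also without E8.5 replicate 1 or 2, Cdh5 also without E8.5 replicate 3, and Mmrn2 also without E8.5 replicate 2 or E10.5 replicate 3 (adjusted p up to 0.105, 0.074 and 0.0767). Of the list, 2 genes fell without E8.5 replicate 2, and 1 without E10.5 replicate 2. Stab1, a scavenger receptor of endothelium and macrophages, rose by 1.14. Pecam1, common to all endothelium, had a change of 0.34 (adjusted p = 0.334) and Tek of -0.71 (adjusted p = 0.174).

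Of 19 arterial and Notch genes 5 rose and 0 fell (3 rose without E10.5 replicate 2 or 3). Jag1, a Notch ligand of arteries, went from 6.66, 5.71 and 6.35 to 7.76, 7.83 and 7.76 (1.55, SE 0.23, adjusted p = 0.000372). The connexin Gja5 (1.15), the chemokine receptor Cxcr4 (1.16) and the BMP receptor Acvrl1 (0.90) rose as well. The list median was 0.17 as deposited and -0.07 after joint quantile normalization, so the list as a whole had no fixed direction. Of 9 venous and lymphatic genes 1 fell, Flt4, the VEGF-C receptor, from 9.08, 9.03 and 9.13 to 8.14, 7.93 and 8.0 (-1.06, SE 0.13, adjusted p = 0.000104), with a change of 0.02 on its other probe set. Among 18 genes of VEGF, angiopoietin and other angiogenic signals 3 rose, with Sema3c (2.16) and the tip cell gene Esm1 (2.09) ahead, and Igf1 fell by 0.76. The call of Igf1 was lost without E8.5 replicate 1 or 2 or E10.5 replicate 2 or 3 (adjusted p up to 0.0675), that of the third riser, Fgf2, without any 1 of the 6 arrays (up to 0.0874), and 3 of the list fell without E8.5 replicate 3.

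**Figure D4:**
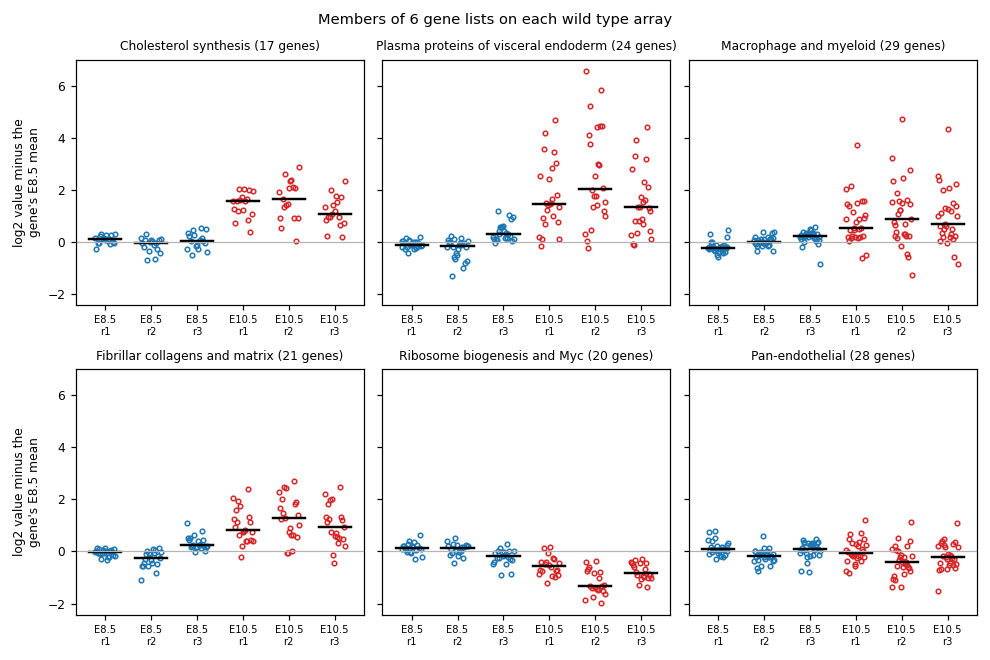
Log2 value of each list member on each wild type array minus its own mean over the 3 E8.5 arrays, for 6 lists; black bars are medians over members. On all 3 E10.5 arrays the medians of the cholesterol, plasma protein, macrophage and collagen lists lie above those of every E8.5 array, and the median of ribosome biogenesis lies below.

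Many matrix and contractile genes rose in the whole yolk sac. Of 5 mesenchyme markers 3 rose, and Pdgfra and Hand1 were not called (adjusted p = 0.621 and 0.861). In the list of fibrillar collagens and matrix 12 of 21 genes rose and 0 fell (median 1.02 as deposited, 0.89 after joint quantile normalization). Lox, the enzyme that crosslinks collagen, went from 7.44, 6.61 and 8.22 to 9.83, 10.15 and 9.92 (2.54, SE 0.41, adjusted p = 0.000684). Col1a1, the main chain of type I collagen, was at 11.60, 10.54 and 12.73 and then at 13.67, 13.90 and 13.85 (2.19, SE 0.49, adjusted p = 0.00497). E8.5 replicate 3 was the highest of its group for both genes, and E8.5 replicate 2 the lowest. Col6a1 (2.13) and Col6a3 (2.07), of the microfibril-forming type VI collagen, rose too. Of 16 smooth muscle and pericyte genes 8 rose and 1 fell; Myl9 (2.09), Mylk (1.44), Actg2 (1.43) and Tpm2 (1.37) of the contractile apparatus led, and 4 rose without E8.5 replicate 1 or E10.5 replicate 1 and 5 without E8.5 replicate 2 or E10.5 replicate 2 or 3. The fall was of Smtn (-0.64; lost without E8.5 replicate 2 or E10.5 replicate 2, adjusted p up to 0.0689).

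Of 13 mesothelial genes 6 rose (list median 0.59 as deposited, 0.30 after joint quantile normalization), with Bnc1 (1.64) and Upk1b (1.26) stable and Upk3b (1.58) lost without E8.5 replicate 2 or E10.5 replicate 1 (adjusted p up to 0.0761), and Muc16 fell (-0.74). Only 3 rose without E8.5 replicate 1 or 2 or E10.5 replicate 1 or 2. The median of 19 genes of extraembryonic mesoderm and mesenchyme was 0.25 as deposited and -0.03 after joint quantile normalization; 5 rose, among them decorin (Dcn, 2.20 on the main and -0.07 on the other probe set), lumican (Lum, 1.12) and the transcription factor Tbx20 (1.03). Those that fell, 2 in number, were Cdx2 (-0.61) and Bmp4 (-0.48), with adjusted p up to 0.0875 and 0.138 when 1 array was left out; 0 of the list fell without E8.5 replicate 1 or 2 or E10.5 replicate 2. In the basement membrane and parietal endoderm list 3 of 17 rose, with follistatin (Fst, 1.47) stable, and 1 fell (Pth1r, -1.25; lost without E8.5 replicate 1 or 2 or E10.5 replicate 2 or 3, adjusted p up to 0.169); 1 rose without E8.5 replicate 2 or E10.5 replicate 2, and 5 without E8.5 replicate 3.

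Genes of ribosome production formed the main group that fell. Of 20 members 14 fell and 0 rose (7.02% and 15.8% of all genes), with a median of -0.94 as deposited and -0.99 after joint quantile normalization. Nolc1, a nucleolar assembly factor, was at 11.43, 10.93 and 11.20 at E8.5, against 10.21, 9.19 and 9.84 at E10.5 (-1.44, SE 0.26, adjusted p = 0.00139). Odc1, the first enzyme of polyamine synthesis and a Myc target, went from 12.98, 13.09 and 12.52 to 11.95, 11.56 and 11.95 (-1.04, SE 0.17, adjusted p = 0.000806). Dkc1 (-1.43) and the RNA polymerase I subunit Polr1b (-1.14) also fell, with calls lost without E8.5 replicate 1 or 2 or E10.5 replicate 2 (adjusted p up to 0.0734 and 0.0694). E10.5 replicate 2 was the lowest array in each of these 4, and 8 members fell without it.

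Of 31 cell cycle and replication genes 6 fell and 2 rose. Cyclin E1 (Ccne1, -0.88) and the helicase subunits Mcm4 (-0.86) and Mcm6 (-0.66) fell, while the inhibitors Cdkn2c (1.49) and Cdkn1b (1.61, but -0.30 on its other probe set) rose. Without E8.5 replicate 3, 10 fell and 4 rose. Lin28a, which blocks let-7 maturation, went from 12.07, 11.31 and 12.12 to 11.04, 10.07 and 10 (-1.47, SE 0.29, adjusted p = 0.0026). Of the 12 genes of its list 2 fell, Lin28a and Ccnd1 (-0.80; lost without E8.5 replicate 1 or 2 or E10.5 replicate 1 or 2, adjusted p up to 0.0767). The de novo methyltransferase Dnmt3b was at 10.91, 11.37 and 9.52 and then at 9.07, 8.45 and 9.12 (-1.72, SE 0.53, adjusted p = 0.0267), lost without E8.5 replicate 1 or 2 or E10.5 replicate 1 or 2 (adjusted p up to 0.11). Tet2, which oxidises methylated cytosine, rose by 1.39. Of 23 early embryo genes 4 rose (17.4%, against 15.8% of all genes), Ifitm3 and Ifitm1 (1.41) among them, and Sall4 fell (-1.11).

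Signalling genes showed no common direction. Of 36 Wnt pathway genes and targets 10 rose and 0 fell, but the median was 0.20 as deposited and -0.04 after joint quantile normalization, and 6 rose without E8.5 replicate 2 or E10.5 replicate 1 and 5 without E10.5 replicate 3. Wnt4 (1.38) and Wnt8a (1.09) were the ligands with the largest changes. The other probe set of Wnt4 changed by 0.35. For the BMP and TGF-beta list 6 of 25 rose and 5 fell. Tgfbi, a TGF-beta induced matrix protein, rose from 7.45, 7.04 and 8.01 to 9.63, 9.81 and 9.52 (2.16, SE 0.31, adjusted p = 0.000282), and the ligand Tgfb2 by 1.6. Id3, a target of BMP signalling, went from 9.70, 9.91 and 9.75 to 8.67, 7.06 and 7.93, and the ligands Bmp6 (-1.64) and Bmp7 (-0.82) fell with it. Only 3 fell without E10.5 replicate 2 or 3.

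Other signals changed gene by gene. Ihh, the hedgehog ligand of visceral endoderm, fell from 10.05, 9.81 and 9.94 to 9.38, 8.58 and 8.76 (-1.02, SE 0.25, adjusted p = 0.00849); of 15 hedgehog genes 3 rose (Gas1, Cdon and Hhip, by 0.97, 0.67 and 0.64) and 2 fell. Without E10.5 replicate 2, 1 rose. Other probe sets changed by 1.05 and 0.01 for Gas1, by 0.06 for Cdon and by 0.32 to 0.80 for Hhip. Igfbp1, an IGF-binding protein of liver, rose by 2.52 (SE 0.62, adjusted p = 0.00838), and of 17 genes of the IGF axis 3 rose and 4 fell; 1 rose without E8.5 replicate 2 or E10.5 replicate 2. The falls of that list held poorly, with 2 without E8.5 replicate 1 or 2 or E10.5 replicate 2 and 1 without E10.5 replicate 3. Of 19 imprinted growth genes 5 rose and 0 fell, led by Nnat (1.61); 2 rose without E10.5 replicate 2 and 3 without E10.5 replicate 3. In the Hox and Cdx list 2 of 26 rose and 3 fell, Hoxb6 and Hoxb2 (-0.91) among the falls. Retinoid genes gave 3 rises and 3 falls of 19, with the retinol-binding Rbp2 up (1.52) and the retinol dehydrogenase Rdh10 down (-1.21); 1 fell without E10.5 replicate 2. Of 22 stress and immediate early genes 7 rose, with Fos at 7.07 to 7.42 and then 8.99 to 9.20 (1.84), and 1 fell (Fosb, -0.86); 4 rose without E8.5 replicate 1 or 3 or E10.5 replicate 2.

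Markers of tissues that a dissection could carry along were followed too. Prl8a2, a decidual prolactin, was at 9.42, 10.56 and 8.92 at E8.5, against 6.98, 7.70 and 7.55 at E10.5 (-2.23, adjusted p = 0.0252), and Prl4a1, a placental prolactin, at 9.77, 8.13 and 8.27 and then 6.67, 6.59 and 6.53 (-2.13, adjusted p = 0.0213). Both were higher on every E8.5 array than on every E10.5 array, and both calls were lost when single arrays were left out: Prl8a2 without E8.5 replicate 1 or 2 or E10.5 replicate 1 or 3 (adjusted p up to 0.103), Prl4a1 without E8.5 replicate 1 or E10.5 replicate 2 or 3 (adjusted p up to 0.0895). Of 13 trophoblast genes 0 rose and 2 fell (0 fell without E8.5 replicate 1 or E10.5 replicate 2 or 3), and of 13 decidual genes 2 rose and 2 fell (0 fell without E10.5 replicate 3). Of 20 embryo neural genes 4 rose and 2 fell (20% and 10%, against 15.8% and 7.02% of all genes). Hes5 was at 5.24 to 5.65 at E8.5 and at 6.91 to 7.16 at E10.5 (1.61), and its other probe set changed by 0.37. Of 19 heart and muscle genes 4 rose and 1 fell, with Myl4 highest (1.35); 1 rose without E10.5 replicate 1, and 2 without E8.5 replicate 1 or E10.5 replicate 2.

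The stage change in Norrin yolk sacs came from other arrays and was set beside the wild type values. Of the 4145 wild type calls, 4056 had the same sign in Norrin, as did 15002 of all 18193 genes (82.5%); the arrays of both genotypes share the normalization run of their stage. Called under both scalings there too were 2021 of the 2867 risers and 819 of the 1278 that fell, where 16.3% and 9.42% of all genes rose and fell in Norrin. The difference of the stage changes passed an adjusted p under 0.05 in 17 genes (0.0934%; 1275 at an unadjusted p under 0.05), of which 10 were wild type calls. That count was 5 without wild type E8.5 replicate 2 or E10.5 replicate 1, 6 without wild type E8.5 replicate 1, Norrin E8.5 replicate 1 or Norrin E10.5 replicate 3, 7 without wild type E10.5 replicate 2, 9 without Norrin E8.5 replicate 2, 31 without Norrin E10.5 replicate 2 and 36 without wild type E8.5 replicate 3. Slc16a7 rose by 5.06 in wild type and 2.59 in Norrin (difference 2.48, SE 0.23, adjusted p = 0.00145). Saa4, an apolipoprotein of the serum amyloid A family, changed by 2.55 in wild type and -0.17 in Norrin (2.72, adjusted p = 0.000339), and the muscle-type fructose bisphosphatase Fbp2 by 1.98 and -0.61 (2.59, adjusted p = 0.0326). Flt1, a VEGF receptor that also acts as a decoy, had a wild type change of 0.12 and a Norrin change of 1.78 (difference -1.65, SE 0.18, adjusted p = 0.00301). Vldlr, a lipoprotein receptor, rose by 3.00 and 5.14 (-2.15, adjusted p = 0.0372). For Cebpa the changes were 3.51 and 0.92, and the difference of 2.59 had an adjusted p of 0.0677, or 0.0489 after joint quantile normalization. Alb, at 3.96 and 1.07, had a difference of 2.90 with an SE of 1.10 (adjusted p = 0.551).

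**Figure D5:**
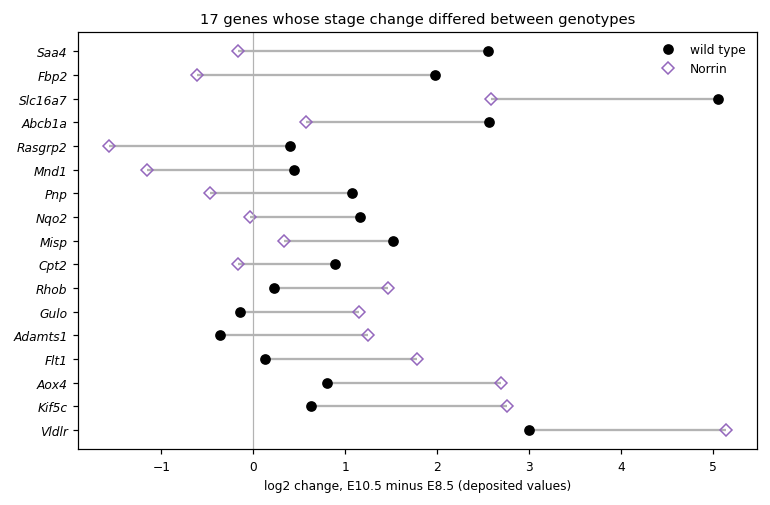
Log2 change from E8.5 to E10.5 in wild type (filled circles) and Norrin (open diamonds) for the 17 genes whose stage change differed between genotypes by limma, joined by a line. Slc16a7 (5.06 and 2.59) and Vldlr (3.00 and 5.14) rose in both genotypes by unequal amounts, and Fbp2 had changes of 1.98 and -0.61.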

How the data were processed

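The deposited table holds 1 column of log2 expression values per array, computed by the authors with RMA (per the submitters' processing notes); version and run settings are not given in the sources used here. Of 45101 probe sets, the platform annotation gave 1 gene for 34945, several for 932 and none for 9160, and 64 were controls. For each of the 18193 genes, the probe set with the highest mean over 12 arrays was used. Several probe sets were present for 1951 of the 4145 called genes. In 1023 of these all other probe sets had the same sign under both scalings. Other probe sets are given here for only some of the genes named. limma 3.58.1 in R 4.3.3 fitted 1 mean per group to all 12 arrays (residual degrees of freedom 8, prior 4.17), with contrasts for the stage change in wild type, the same against a 2-fold change (treat), and its difference between genotypes. All tests were two-sided; p-values were adjusted over the 18193 genes by Benjamini-Hochberg, and 0.05 was the threshold. The median SE of a stage change was 0.16 on the log2 scale, and the number of arrays limits the precision. The fit was tested on simulated data with known changes. Alternatives were other scalings, a low-level filter, means of probe sets, array weights, a replicate block and arrays left out. The genes named were, in each direction, the 15 of largest change that were called under both scalings, with separate groups and a higher mean of at least 7.68 (the median gene level), plus up to 4 called members per direction of each list, the cell type markers and the globins. Promoters are RefSeq's for GRCm38.p6; motifs of 10 or more letters are named without their letters. The 49 gene lists and the members were chosen with earlier results of these data known.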

Additional observations from a re-analysis of the deposited data

Results flagged for a closer look

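The stage change differed between wild type and Norrin yolk sacs in 17 genes by limma's test of the difference (wild type minus Norrin, log2, adjusted p under 0.05). The wild type change was the more positive one for Saa4 (2.72), Fbp2 (2.59), Slc16a7 (2.48), Abcb1a (1.99), Rasgrp2 (1.97), Mnd1 (1.6), Pnp (1.54), Nqo2 (1.20), Misp (1.19) and Cpt2 (1.05). The Norrin change was the more positive one for Vldlr (-2.15), Kif5c (-2.13), Aox4 (-1.89), Flt1 (-1.65), Adamts1 (-1.62), Gulo (-1.29) and Rhob (-1.24). All but Cpt2 (adjusted p = 0.0664) also passed after joint quantile normalization. Rasgrp2, an exchange factor of platelets, and Mnd1, a meiotic recombination factor, had changes of 0.40 and 0.45 in wild type and of -1.57 and -1.16 in Norrin. Abcb1a, the drug efflux pump, had E8.5 and E10.5 means of 6.30 and 8.86 in wild type and 5.61 and 6.18 in Norrin.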

How the results depend on the processing

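The 5915 wild type calls on deposited values became 3815 without the genes below the 0.25 quantile of the mean and 10797 with array weights; leaving out 1 array gave 4311 to 6285. The 151 genes past the 2-fold test became 68 after joint quantile normalization, 62 after median centring, 67 after cyclic loess, 86 with the low filter, 502 with array weights, 63 with the replicate number as a block and joint quantile normalization, and 49 on the 6 wild type arrays alone with joint quantile normalization, with 77 to 179 when 1 array was left out. The 17 genes that differed between genotypes became 29 after joint quantile normalization, 8 with the low filter, 37 with means of probe sets, 2728 with array weights and 11 with the replicate block and joint quantile normalization, with 5 to 36 when 1 array was left out. The 4145 genes called under both scalings were 2734 to 4388 when 1 wild type array was left out, 4283 with the replicate block and 3357 on the 6 wild type arrays; these settings and the list counts under them were chosen after seeing the data. Replicate numbers did not pair the wild type arrays (correlations of the deviations of same-numbered arrays -0.11, 0.02 and -0.26), and the replicate block gave 6166, 150 and 13 for the other counts. With means of all probe sets Pappa (0.0191), Igfbp7 (0.37), Pax3 (0.40) and Dcx (-0.0808) changed sign. Of 223 genes called under both scalings that were named or differed between genotypes, 222 kept their call under cyclic loess and 207 under median centring, but 180 without wild type E10.5 replicate 2; the cause was not tested.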
